A study of Homo sapiens with 18 samples.

Results

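The genes described here are the nuclear genes that encode the subunits of the respiratory chain and of ATP synthase, measured in Raji cells, a human line from a Burkitt lymphoma of B cells, that carry an auxin-inducible degron on SMARCA4. They were chosen by symbol and gene type. No measured value entered this rule, though earlier results of these data were known. In all, 90 of the 60707 genes read are protein-coding and belong to complex I (39 genes, with NDUFA4L2 counted by its symbol), complex II (4), complex III (10), complex IV (18, with NDUFA4 counted here) or complex V (19). Pseudogenes and assembly factors were left out, and 2 members, NDUFC2-KCTD14 and ATP5MF-PTCD1, are readthrough genes that join a member to its neighbour. RNA sequencing had been done on 18 libraries in 6 groups of 3: GFP low and GFP high cells at 24 h, GFP low and GFP high cells at 48 h, and GFP low and GFP high cells at 72 h. All groups share the degron line and carry the genotype label Smarca4+/+. In the column names of 1 library set GFP stands joined to BRG1, another name of SMARCA4. The sources used here say no more of what the GFP signal marks, nor how low and high cells were parted, or when the clock of hours started. Whether a group's libraries stem from separate cultures is not stated either, so p-values reflect library-to-library spread, which could be technical.

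The respiratory chain sits in the inner mitochondrial membrane. Complexes I and II pass electrons from NADH and succinate to ubiquinone, complex III passes them to cytochrome c, and complex IV, cytochrome c oxidase, passes them to oxygen; complexes I, III and IV pump protons, and complex V, the ATP synthase, uses the proton gradient to make ATP. Most subunits are encoded in the nucleus and imported, while a small set of core subunits is encoded in mitochondrial DNA; complex II is wholly nuclear. In B cells the chain is known for supporting the growth that follows activation. SMARCA4 (BRG1) is the ATPase of the BAF chromatin remodelling complex, and the degron acts on its protein, so its RNA does not check the depletion: SMARCA4 averaged 589.6 ± 21.4 CPM (counts scaled to library size with edgeR's TMM factors) in GFP low and 418.3 ± 9.39 in GFP high cells at 24 h (SD, n = 3 each).

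Libraries held 27257876 to 55419458 counts. All 6 B cell markers were present in every library, the lowest value being 113.8 CPM, and their sum was 2333 to 2425 CPM in GFP low and 2557 to 2629 CPM in GFP high cells at 24 h. The 8 T cell markers summed to 23.7 to 26.3 CPM in GFP low and 45.7 to 48.9 CPM in GFP high cells at 24 h, with CD2, CD3E and CD3G under 1 CPM on average. The 6 fibroblast or epithelial markers summed to 8.03 to 10.04 CPM in GFP low and 5.66 to 6.10 CPM in GFP high cells at 24 h, of which COL1A1 alone exceeded 1 CPM on average. The 5 myeloid and the 5 erythroid markers were each under 1 CPM on average, and the myeloid sum was 2.13 to 2.42 CPM in GFP low and 0.762 to 0.991 CPM in GFP high cells at 24 h. The part of these shifts in the results below was not tested. In bulk RNA, fewer cells of a kind and less RNA per cell cannot be told apart.

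Of the 90 members, 84 had enough counts to be tested among 16474 genes. The 6 that did not are NDUFC2-KCTD14 and the tissue-restricted complex IV isoforms COX6A2, COX6B2, COX7A1, COX7B2 and COX8C. NDUFC2-KCTD14 and COX6A2 had 0 counts in all 18 libraries, where 3 counts in the shallowest library would be 0.11 CPM, and the other 4 never exceeded 3 counts in a library. COX4I2, the hypoxia-linked isoform of the regulatory subunit COX4, ran from 2.39 to 5.07 CPM over the 18 libraries, against 189.7 to 308.4 CPM for its common form COX4I1. Per kilobase of exon, a scale on which genes can be set side by side, ATP5F1B, the catalytic beta subunit of ATP synthase, was highest with a mean of 488.6 CPM per kilobase over the 6 groups, followed by NDUFS5 at 178.4, NDUFA1 at 168.4 and COX7A2 at 152.1. The order below the first place depends on the length used: with the principal transcript in place of all exons, ATP5F1B stayed first at 594.6, whereas NDUFA1 moved to place 32.

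At 24 h the members were lower as a group in GFP low cells. Together they took 0.738% to 0.744% of counts in the 3 GFP low libraries, against 1.02% to 1.03% in the 3 GFP high libraries. Their summed level was 7004 ± 73.5 CPM in GFP low and 10620 ± 80.4 CPM in GFP high cells (SD, n = 3 each). Of the 84 tested members, 73 were lower and 2 higher by edgeR's quasi-likelihood test (Benjamini-Hochberg adjusted p below 0.05 across every gene tested), which is the rule for every call below. Over all genes tested, 28.5% were lower and 29.3% higher. The median log2 fold change, GFP low over GFP high, was -0.67 over the members and 0.03 over all genes. In all 75 called members the 3 GFP low libraries did not overlap the 3 GFP high libraries. The same held for the 17 members called at 48 h and the 21 at 72 h. How many of all called genes are apart in this way is not given here. Within the 3 library sets named in the column headers, the median member difference was -0.66, -0.65 and -0.63 log2 units.

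**Figure D1:**
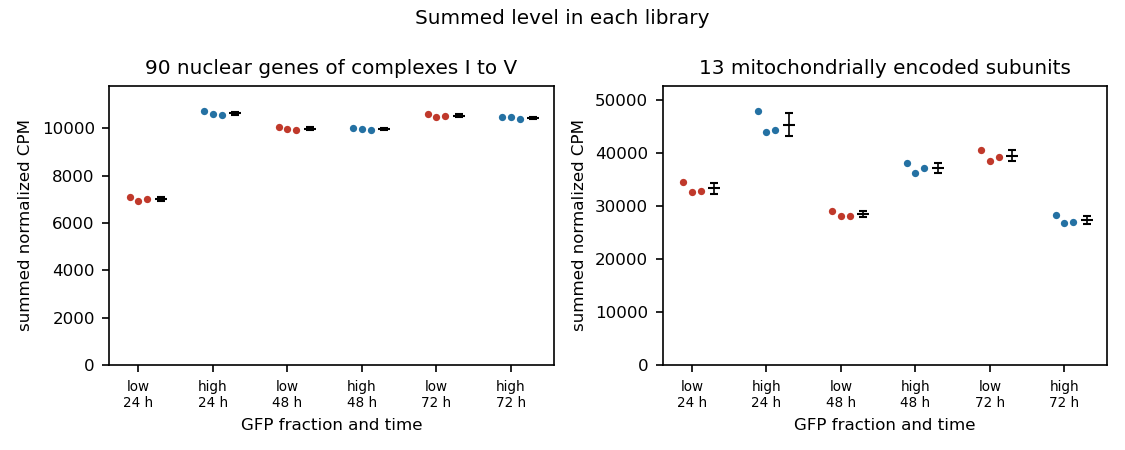
Summed normalized CPM (vertical axes, from 0) of the 90 nuclear members (left) and of the 13 mitochondrially encoded subunits (right) in each library of GFP low (red) and GFP high (blue) cells at 24, 48 and 72 h; points are libraries and black bars mean and SD (n = 3). The nuclear sum is low in GFP low cells at 24 h, where it averages 7004 CPM against 10620 CPM in GFP high cells, and averages between 9969 and 10620 CPM in the other 5 groups.

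The lower level was seen in every complex. All 13 tested members of complex IV and all 10 of complex III were lower, with medians of -0.74 and -0.68 log2 units. In complex V 17 of 19 were lower (median -0.78), in complex II 3 of 4 (median -0.61) and in complex I 30 of 38 (median -0.52). The summed level of complex IV was 1211 ± 18.1 CPM in GFP low and 2050 ± 38.2 CPM in GFP high cells, and that of complex I 1950 ± 22.1 CPM in GFP low and 2582 ± 14.6 CPM in GFP high cells (SD, n = 3 each). The order of the complexes was not tested, and their members' values overlap. Among the 53 tested members that share at most 10% of their exon bases with another gene, 49 were lower by the edgeR test and the other 4 were not called, with a median of -0.67.

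**Figure D2:**
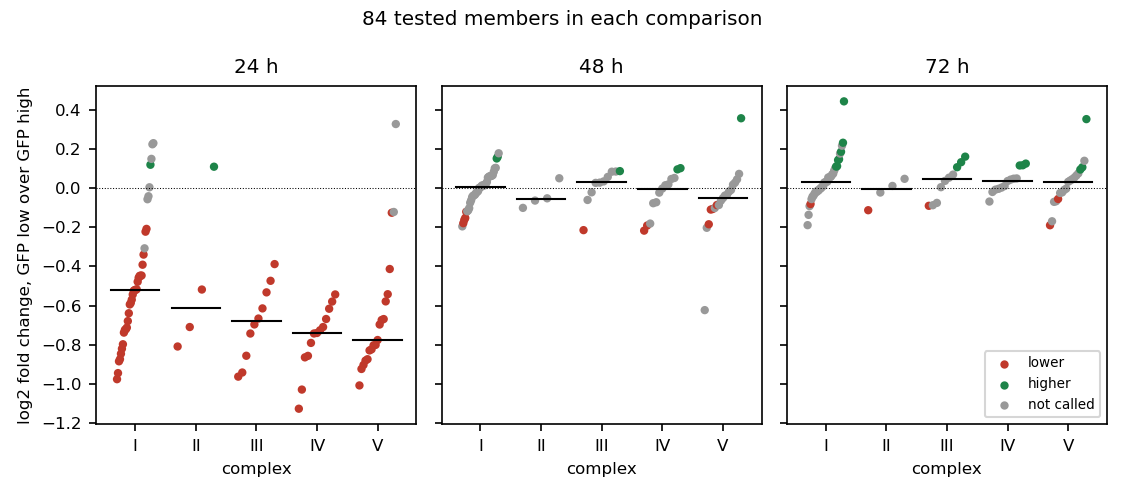
Log2 fold change of GFP low over GFP high cells (vertical axis) for the 84 tested members by complex (horizontal axis) at 24, 48 and 72 h. Red and green points are members called lower and higher by edgeR, grey points were not called, and black lines are medians: at 24 h nearly all points lie below 0, and at 48 and 72 h they lie around 0.

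In complex IV the lowest was COX7B, a small accessory subunit encoded at chrX:77899440-77907376 (hg38). It had 53.9, 52.6 and 52.4 CPM in GFP low libraries at 24 h, against 124.1, 116.3 and 107.3 CPM in GFP high libraries. The 2 groups are far apart, and the log2 fold change was -1.13 ± 0.05 (SE; edgeR adjusted p = 2.2e-14). NDUFA4 (chr7:10931943-10940153), a subunit once assigned to complex I and now placed in complex IV, had 83.4, 76.8 and 78.8 CPM in GFP low and 170.0, 160.2 and 158.1 CPM in GFP high libraries, a log2 fold change of -1.03 ± 0.03 (edgeR adjusted p = 4.92e-17). The members that fell least were COX6C, at -0.54, and the low isoform COX4I2, at -0.58; COX4I2 was not called once a length trend was removed (0.17 with that on exon length). The common regulatory subunit COX4I1 and the subunits COX5A and COX5B fell by 0.62, 0.67 and 0.74 log2 units.

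In complex V subunits of the catalytic head, the membrane ring and the stalks were lower. ATP5F1B (chr12:56638175-56645984) had 800.9, 783.7 and 789.6 CPM in GFP low libraries at 24 h, against 1145, 1152 and 1159 CPM in GFP high libraries, with no overlap (log2 fold change -0.54 ± 0.02, edgeR adjusted p = 1.13e-17). ATP5F1A, its alpha partner in the head, and ATP5F1C, the gamma subunit of the central stalk, fell by 0.58 and 0.67. The lowest members were ATP5MK, a small membrane subunit tied to dimers of the enzyme, at -1.01 ± 0.03 (SE), and ATP5MF, another membrane subunit, at -0.92 ± 0.05. With the trend on principal transcript length removed ATP5MF stood at -0.03 and was not called (edgeR adjusted p = 0.447), and likewise ATP5ME, at -0.05 (0.174). The peripheral stalk subunit ATP5PB stood at -0.90 ± 0.03.

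The ring subunit c is encoded by 3 genes whose mature protein is the same, and their values lay apart. ATP5MC1 and ATP5MC3 fell by 0.88 and 0.80 log2 units at 24 h. ATP5MC2 (chr12:53632726-53677408) had 86.5, 86.4 and 89.4 CPM in GFP low and 95.1, 94.0 and 97.0 CPM in GFP high libraries. Its groups did not overlap, but the log2 fold change was only -0.13 ± 0.04 (edgeR adjusted p = 0.00547), and with the exon-length trend removed it was 0.00 and not called (0.958). The next smallest fall in complex V was that of the central stalk subunit ATP5F1D, at -0.41, which also lost its call with that trend removed (-0.09, edgeR adjusted p = 0.141). The 2 members of complex V that were not called, ATP5MGL and ATP5MF-PTCD1, were under 1 CPM.

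In complex III, UQCRQ, a small subunit next to cytochrome b, had 35.8, 33.6 and 34.6 CPM in GFP low and 68.4, 67.9 and 66.7 CPM in GFP high libraries at 24 h (log2 fold change -0.96 ± 0.04, edgeR adjusted p = 9.81e-16). CYC1, the cytochrome that hands electrons on to cytochrome c, and UQCRFS1, the iron-sulfur protein of Rieske, fell by 0.86 and 0.67 log2 units. The core proteins UQCRC2 and UQCRC1 changed least, at -0.47 and -0.39. UQCRHL stood at -0.94 and UQCRH, the hinge protein, at -0.74; UQCRHL is a near-identical copy of UQCRH, so reads may have been split between them and the value of UQCRHL is uncertain.

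In complex I the lowest were NDUFAB1, the mitochondrial acyl carrier protein that is also an accessory subunit, and NDUFB6, an accessory subunit of the membrane arm. NDUFAB1 had 48.9, 49.2 and 47.3 CPM in GFP low and 97.5, 95.0 and 93.3 CPM in GFP high libraries at 24 h, a log2 fold change of -0.98 ± 0.03 (edgeR adjusted p = 2.2e-17). NDUFB6 stood at -0.94 ± 0.06. NDUFA10, an accessory subunit, was the called member of complex I that fell least, at -0.21.

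Some core subunits of complex I, which carry its electron path, were not called lower at 24 h. NDUFV1 (chr11:67605653-67612554), which binds FMN and oxidises NADH, had 217.3, 217.7 and 232.1 CPM in GFP low and 197.0, 203.0 and 213.8 CPM in GFP high libraries at 24 h. It was higher in GFP low cells, by 0.12 ± 0.04 log2 units (edgeR adjusted p = 0.0167). NDUFS1, the largest iron-sulfur subunit, had 267.8, 255.5 and 251.4 CPM in GFP low and 266.2, 269.8 and 261.2 CPM in GFP high libraries, and the groups overlap. Its log2 fold change of -0.04 ± 0.03 was not called. It was called lower with the replicate block (-0.04, edgeR adjusted p = 0.0267) and with the trend on exon length (-0.23, 7.35e-08) or principal length (-0.34, 5.49e-11) removed. Of the remaining core subunits, NDUFS3, NDUFS8 and NDUFS7 fell by 0.57, 0.34 and 0.22. NDUFV2 was not called, at 0.23 ± 0.12 with 2.41 to 3.43 CPM in the 6 libraries at 24 h. The accessory subunits NDUFV3, at 0.00 ± 0.04, NDUFA13, at 0.22 ± 0.11, and NDUFA7, at 0.15 ± 0.21, were not called either. Nor was NDUFA4L2, at -0.31 ± 0.15, a paralog of NDUFA4 that was counted in complex I by its symbol only. With the exon-length trend removed, NDUFV2, NDUFA13 and NDUFA7 were called higher, at 0.49, 0.48 and 0.64 (edgeR adjusted p = 0.00154, 0.000561 and 0.0117). Without the GFP low library of set 2 or the GFP high library of the unnumbered set NDUFV1 lost its call (edgeR adjusted p = 0.116 and 0.0605). NDUFS1 was called at -0.07 without the GFP low library of the unnumbered set, and NDUFV2 at 0.32 without the GFP high library of set 1.

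Complex II also split. SDHA (chr5:218241-257082), the flavoprotein that oxidises succinate, had 26.0, 27.5 and 26.9 CPM in GFP low and 23.9, 24.7 and 25.7 CPM in GFP high libraries at 24 h, without overlap, and was higher in GFP low cells by 0.11 ± 0.04 log2 units (edgeR adjusted p = 0.0282). Its iron-sulfur partner SDHB and the membrane anchors SDHC and SDHD fell by 0.52, 0.71 and 0.81 log2 units. NDUFV1 and SDHA were the only members called higher at 24 h. SDHA shares 21.6% of its exon bases with another gene. Its call was lost without the GFP low library of set 1 or of set 2, or the GFP high library of the unnumbered set (edgeR adjusted p = 0.0669, 0.0729 and 0.078), and by DESeq2's Wald test (adjusted p = 0.105). With the trend on exon length removed SDHA stood at -0.02 log2 units, not called.

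**Figure D3:**
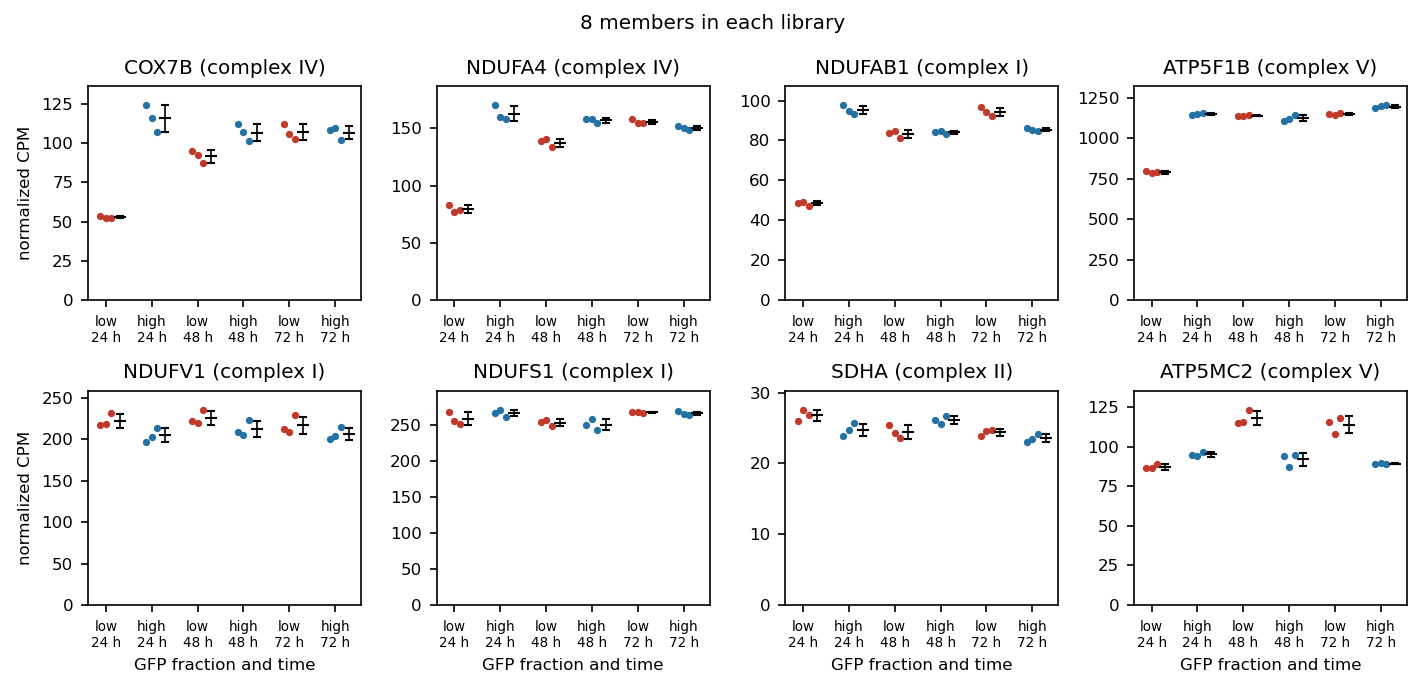
Normalized CPM (vertical axes, from 0) of 8 members in each library of GFP low (red) and GFP high (blue) cells at 24, 48 and 72 h; points are libraries and black bars mean and SD (n = 3). COX7B, NDUFA4, NDUFAB1 and ATP5F1B are low in GFP low cells at 24 h, NDUFV1, NDUFS1 and SDHA are nearly level, and ATP5MC2 is high in GFP low cells at 48 and 72 h.

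Nuclear respiratory genes are known to be bound by NRF1, by the ETS factor GABPA and by YY1 near their starts. RefSeq promoter windows (GRCh38.p14, 250 bases before to 50 after the start, the first listed for a gene) matched 70 of the 90 members by symbol, and were searched on both strands. The NRF1 motif GCGCANGCG was found in 32.9% of these members and in 11.0% of 15843 protein-coding promoters. The ETS motif CCGGAAG was found in 28.6% of members and 14.2% of promoters, and the YY1 motif AANATGGC in 31.4% and 7.92%. The E-box CACGTG, in 10% and 8.88%, and the SP1 motif GGGCGG, in 60.0% and 58.5%, were about as common in both. A match is a description and not a binding site.

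Members fell at 24 h with and without these motifs. Of the tested members with an NRF1 match 21 of 22 were lower (median -0.64), and of those without it 37 of 43 (median -0.68). With an ETS match 18 of 20 were lower (median -0.72), and without it 40 of 45 (-0.59). With a YY1 match 19 of 22 were lower (median -0.55), and without it 39 of 43 (-0.71). Whether these medians differ was not tested. Of the 2 members called higher, SDHA has 4 NRF1 matches in its window, and NDUFV1 has none of the 5 motifs. The 150 bases before the start of 6 genes are shown, the lowest members of complexes IV, I and III at 24 h, the 2 that were higher, and ATP5MC2, higher at the later times; capitals mark matches that lie within the shown stretch.
COX7B (chrX:77899318-77899467, plus strand, YY1): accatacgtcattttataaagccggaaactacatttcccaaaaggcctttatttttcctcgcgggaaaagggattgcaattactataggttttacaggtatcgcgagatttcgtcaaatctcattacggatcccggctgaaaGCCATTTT
NDUFAB1 (chr16:23596317-23596466, minus strand, NRF1): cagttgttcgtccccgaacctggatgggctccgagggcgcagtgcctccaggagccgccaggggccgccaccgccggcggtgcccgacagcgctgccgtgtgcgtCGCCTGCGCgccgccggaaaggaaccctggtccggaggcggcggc
UQCRQ (chr5:132866492-132866641, plus strand, ETS): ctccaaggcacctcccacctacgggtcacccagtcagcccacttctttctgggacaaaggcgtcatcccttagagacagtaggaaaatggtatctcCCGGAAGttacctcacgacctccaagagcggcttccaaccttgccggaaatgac
SDHA (chr5:218170-218319, plus strand, NRF1): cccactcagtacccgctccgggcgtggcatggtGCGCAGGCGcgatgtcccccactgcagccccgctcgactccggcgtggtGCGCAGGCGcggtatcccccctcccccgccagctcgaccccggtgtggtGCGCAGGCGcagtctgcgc
NDUFV1 (chr11:67606786-67606935, plus strand, no match): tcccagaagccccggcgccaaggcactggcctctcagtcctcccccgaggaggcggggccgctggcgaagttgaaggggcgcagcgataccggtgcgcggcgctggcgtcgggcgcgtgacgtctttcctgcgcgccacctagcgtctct
ATP5MC2 (chr12:53676084-53676233, minus strand, NRF1): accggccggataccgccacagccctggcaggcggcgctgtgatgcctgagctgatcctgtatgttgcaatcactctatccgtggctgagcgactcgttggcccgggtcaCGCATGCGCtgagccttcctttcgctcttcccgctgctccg

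The members' exons run from 421 to 19359 bases in all, with a median of 2305, and the 24 h difference moved with length across the whole table. Among members with at most 1000 exon bases, 11 of 12 were lower and the median log2 fold change was -0.69, against 99 of 147 and -0.70 in other protein-coding genes of that length. Above 1000 and up to 2000 bases, 18 of 19 members were lower (median -0.74), against 486 of 778 other genes (-0.39). Above 2000 and up to 4000 bases the counts were 27 of 31 members (-0.67) and 1392 of 2802 other genes (-0.17). Above 4000 bases 17 of 22 members were lower and 2 higher (-0.50), against 1965 lower and 3321 higher of 7459 other genes (0.10). By exon length the shortest members had nearly the median of other short genes, and in the longer classes the members lay below the others. By the principal transcript's length, in classes chosen after seeing the data, 37 of 41 members up to 1000 bases were lower (median -0.72), against 387 of 590 other genes (-0.46).

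With a smooth trend on exon length removed from each library, 63 members were lower and 8 higher at 24 h and their median was -0.33, with a median of 0.14 over all genes. With the trend on the principal transcript's length removed, the counts were 56 lower and 9 higher and the median -0.20, with 0.05 over all genes. Both trends leave most members lower and shrink the median, but the shares of all genes called under them are not given here. Whether length itself takes part in the difference was not tested. Across 82 members the Spearman correlation of the 24 h difference was 0.34 with exon length and 0.27 with principal transcript length, and across 10035 and 10029 other coding genes 0.47 and 0.49. These points share the same 6 libraries, and the values are descriptions.

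**Figure D4:**
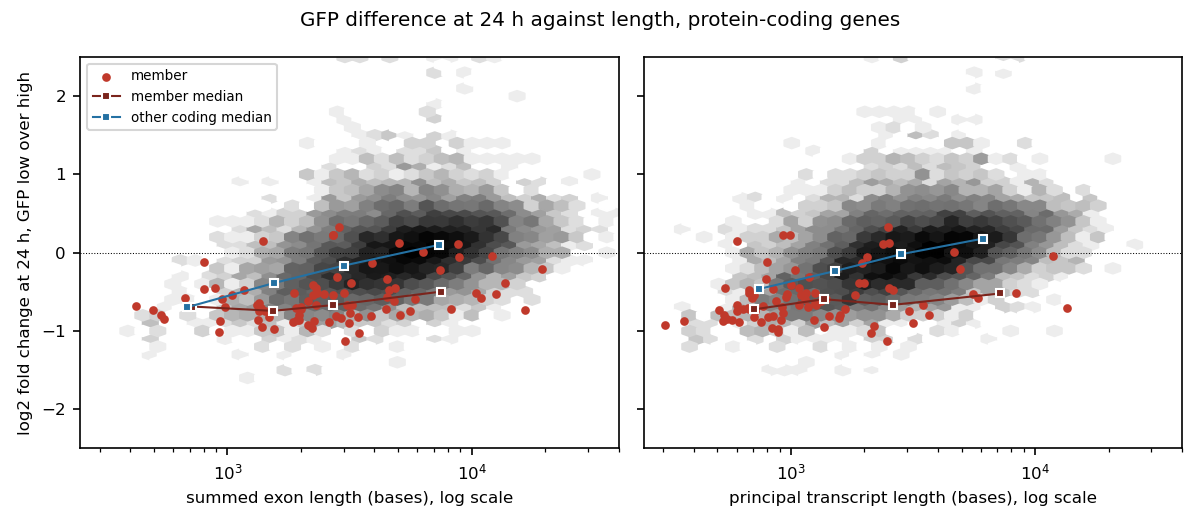
Log2 fold change of GFP low over GFP high cells at 24 h (vertical axis) against summed exon length (left) and principal transcript length (right), both on log axes, for protein-coding genes; grey cells count other genes on a log scale, values beyond 2.5 in size are drawn at the edge, and red points are members. Squares join the medians of 4 length classes: those of members stay between -0.74 and -0.50 on the left panel, while those of other genes (blue) run from -0.70 to 0.10.

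At 48 h the members showed no common shift. Of 84, 11 were lower and 6 higher by edgeR's test, with a median of -0.01 log2 units, while 13.2% of all genes tested were lower and 10.6% higher. The summed level was 9981 ± 62.4 CPM in GFP low and 9969 ± 55.8 CPM in GFP high cells (SD, n = 3 each). With the library set as a replicate block 20 were lower and 19 higher, and without the GFP high library of set 1 only 7 were lower and 4 higher. Here and below, shares of all genes are given only for the main edgeR calls, so counts under other fits or thresholds have no such background. The lowest called members were COX7B (-0.22 ± 0.05), UQCRHL (-0.21 ± 0.07) and NDUFA4 (-0.19 ± 0.03). Also called lower were ATP5MK (-0.18), NDUFB3 (-0.18), NDUFB9 (-0.16), NDUFB1 (-0.15), the central stalk subunit ATP5F1E (-0.11) and ATP5PB (-0.09). Not every called member is named here. Without the GFP low library of set 1, UQCRHL, NDUFB3, NDUFB1 and ATP5PB lost their calls (edgeR adjusted p = 0.0741, 0.0713, 0.212 and 0.0807). NDUFB3, NDUFB1 and ATP5PB also lost them without the GFP low library of set 2 (0.0907, 0.154 and 0.171) or the GFP high library of the unnumbered set (0.0527, 0.157 and 0.123), and UQCRHL, NDUFB1 and ATP5PB without the GFP high library of set 1 (0.105, 0.175 and 0.0581). UQCRHL did so too without the GFP low library of the unnumbered set (0.117) or the GFP high library of set 2 (0.109). By DESeq2's Wald test NDUFB1 and UQCRHL were not called (adjusted p = 0.0634 and 0.0938), and with the exon-length trend removed NDUFB1 and ATP5PB were not (edgeR adjusted p = 0.0936 and 0.0736).

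The highest at 48 h was ATP5MC2. It had 115.1, 116.0 and 123.2 CPM in GFP low and 94.4, 87.4 and 94.9 CPM in GFP high libraries, well apart, and the log2 fold change was 0.36 ± 0.04 (edgeR adjusted p = 1.48e-07). NDUFS4, an accessory subunit of the matrix arm, COX5B, COX7A2L, a factor of supercomplexes of the chain, and UQCRFS1 were higher by 0.15, 0.10, 0.10 and 0.09. NDUFS4 lost its call without the GFP low library of set 2 or the GFP high library of set 1 or 2 (edgeR adjusted p = 0.0732, 0.14 and 0.0662), with the exon-length trend removed (0.0514) or by DESeq2's Wald test (0.0527), COX5B without the GFP high library of set 1 (0.102) and UQCRFS1 without that of the unnumbered set (0.0692).

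At 72 h 5 members were lower and 16 higher, with a median of 0.03 log2 units, against 13.5% of all genes lower and 12.9% higher. The summed level was 10530 ± 74.7 CPM in GFP low and 10450 ± 43.5 CPM in GFP high cells (SD, n = 3 each). With the replicate block 11 were lower and 25 higher. ATP5MC2 was again high, with 115.7, 108.1 and 118.3 CPM in GFP low and 89.3, 89.6 and 89.3 CPM in GFP high libraries (0.35 ± 0.04, edgeR adjusted p = 1.77e-07). NDUFV2 had the largest difference, 0.44 ± 0.13 (edgeR adjusted p = 0.0136), at 2.68, 2.65 and 2.95 CPM in GFP low and 1.83, 2.26 and 2.01 CPM in GFP high libraries. Without the GFP low library of set 2 or the GFP high library of the unnumbered set it was not called (edgeR adjusted p = 0.075 and 0.0582), nor with no filter on low counts (0.083). These are low levels, and 28.4% of the exon bases of NDUFV2 lie in another gene as well.

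The other members called at 72 h changed by at most 0.23, and not every one is named here. NDUFB1, an accessory subunit, was higher by 0.23, UQCRH by 0.16, NDUFAB1 by 0.14, UQCRQ and COX7C by 0.13, COX7A2 and COX5B by 0.12, UQCR10, NDUFB4 and ATP5MC3 by 0.11, and ATP5MK by 0.10. Those lower were ATP5PB (-0.19), SDHB (-0.11), UQCRC2 (-0.09), NDUFA10 (-0.08) and ATP5F1B (-0.06). ATP5F1B had 1150, 1148 and 1159 CPM in GFP low and 1186, 1201 and 1204 CPM in GFP high libraries, so its groups differ by little but do not overlap. Without the GFP low library of the unnumbered set, ATP5F1B, NDUFB4, NDUFA10 and ATP5MK lost their calls (edgeR adjusted p = 0.0517, 0.108, 0.153 and 0.139). ATP5F1B, NDUFB4 and NDUFA10 also lost them without the GFP high library of set 1 (0.0627, 0.0994 and 0.0657), and NDUFB4, ATP5MK and COX7A2 without that of set 2 (0.052, 0.131 and 0.0548). ATP5F1B did so without the GFP low library of set 1 (0.055), UQCR10 without that of set 2 (0.0694), and UQCRC2 without the GFP high library of the unnumbered set (0.0662). With the exon-length trend removed ATP5F1B, NDUFA10, ATP5MK and UQCR10 were not called (0.137, 0.101, 0.286 and 0.0691), and with the principal length trend removed NDUFB4 was not (0.129).

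The difference between the fractions itself changed with time. Comparing the GFP difference at 48 h with that at 24 h, 73 members had a higher value at 48 h and 2 a lower one by edgeR's interaction test, with a median change of 0.66 log2 units, while 22.1% of all genes tested were higher and 21.4% lower. Of other protein-coding genes with at most 1000 exon bases 61.9% were higher (median 0.681), against 91.7% of members of that length (0.734). Above 1000 and up to 2000 bases these shares were 55.3% and 94.7%, and above 4000 bases 19.8% and 77.3%. The largest changes in each complex were those of UQCRQ (0.99), NDUFB7 (0.98), COX7A2 (0.92), ATP5MF (0.91) and SDHD (0.75). The 2 members with a lower value at 48 h were NDUFV2 (-0.43) and SDHA (-0.21), and with no filter on low counts neither was called. This comparison uses the same libraries as those at 24 h and 48 h and is not separate evidence for them. From 48 h to 72 h the difference changed in fewer members: 11 members had a higher value at 72 h and 4 a lower one, with a median of 0.05, against 5.19% and 3.83% of all genes. With the replicate block these counts were 23 and 9, and without the GFP low library of the unnumbered set at 72 h they were 6 and 2. The largest of these changes was that of NDUFV2 (0.64), followed by NDUFB1 (0.38), ATP5MK (0.28), NDUFA4 (0.24), COX7B (0.22) and UQCRH (0.18); SDHB (-0.16), UQCRC2 (-0.15), NDUFA10 (-0.11) and ATP5F1B (-0.07) went the other way.

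**Figure D5:**
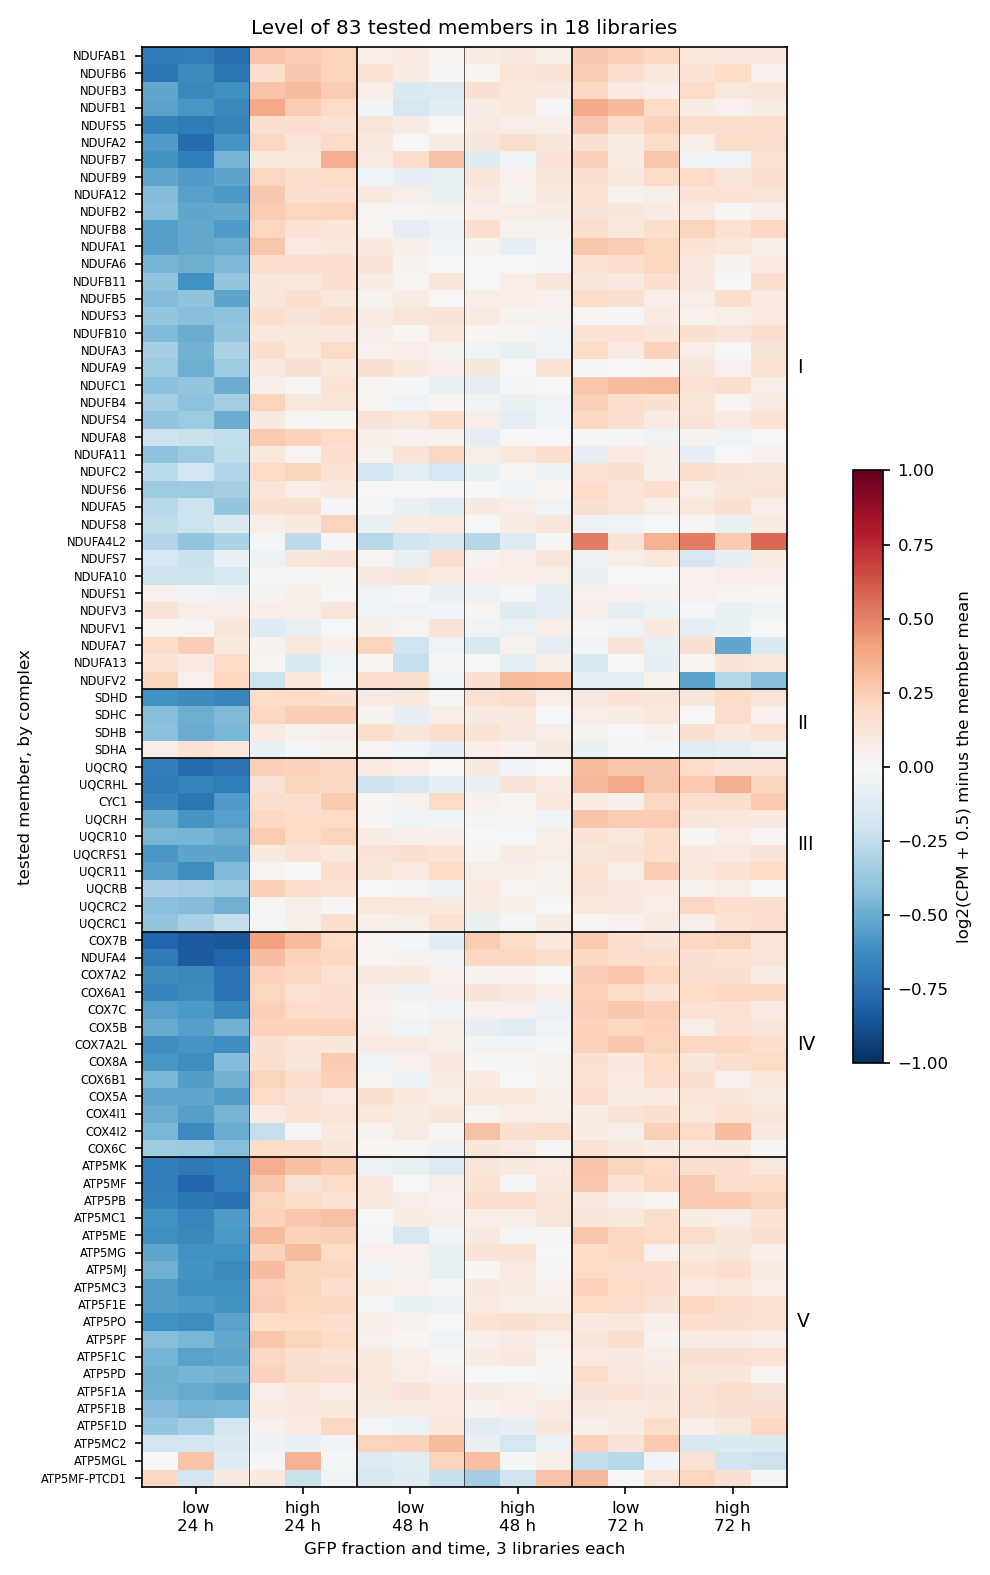
Level of 83 of the 84 tested members (rows, by complex and by the 24 h fold change) in 18 libraries (columns) as log2(CPM + 0.5) minus the member's mean over all libraries, from blue (-1) to red (1). The 3 GFP low libraries at 24 h are blue in most rows of every complex, and the other 15 libraries mostly lie close to the row means.

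Within the GFP low cells the members were higher at 48 h than at 24 h. Of 84, 74 were higher and 2 lower, with a median of 0.53 log2 units, against 25.7% and 25.1% of all genes. The largest was NDUFB6, at 0.80, while SDHA (-0.13) and NDUFV3 (-0.13) were lower. Many other short protein-coding genes rose too. With at most 1000 exon bases 60.5% of them were higher (median 0.434), against 91.7% of members of that length (0.555). Above 1000 and up to 2000 bases these shares were 54.9% and 94.7%, and above 4000 bases 23.6% and 81.8%. From 48 h to 72 h in GFP low cells 39 members were higher and 2 lower (median 0.09), against 13.9% and 12.5% of all genes. The 2 were SDHB (-0.13) and NDUFA10 (-0.12), and the largest rise among called members was that of NDUFA4L2 (0.67), a paralog of NDUFA4 known to be induced by hypoxia, at 3.26, 2.38 and 2.86 CPM at 72 h and 1.68, 1.80 and 1.87 CPM at 48 h. With the exon-length trend removed the counts were 25 higher and 6 lower.

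Within the GFP high cells many members were lower at 48 h than at 24 h. At 48 h against 24 h, 41 members were lower and 0 higher by edgeR's test (median -0.10), against 9.97% and 10.6% of all genes; DESeq2's Wald test gave 45 lower and 0 higher, and at an unadjusted p below 0.05 edgeR gave 53 lower and 3 higher. The largest fall was that of COX5B, which had 68.1, 66.6 and 70.2 CPM at 48 h and 84.3, 84.4 and 84.4 CPM at 24 h (-0.30 ± 0.03, edgeR adjusted p = 2.68e-07). NDUFA8, ATP5ME, UQCRQ and SDHC fell by 0.25, 0.22, 0.20 and 0.18. With the exon-length trend removed 19 were lower and 6 higher, and with the principal length trend removed 17 and 5. Of other protein-coding genes with at most 1000 exon bases 44.9% were lower and 6.8% higher (median -0.21). Members of that length were lower in 66.7% and higher in 0.0% (-0.17). Above 1000 and up to 2000 bases 21.2% of the other genes and 63.2% of members were lower, and above 4000 bases 10.1% and 45.5%. At 72 h against 48 h, 31 members were higher and 2 lower (median 0.06), against 13.7% and 14.2% of all genes. NDUFA4L2 was again the largest rise (0.69), and NDUFV2 (-0.80) and SDHA (-0.15) were lower. The counts were 10 higher and 2 lower with the exon-length trend removed, 12 higher and 4 lower with the principal length trend removed, and 19 higher and 1 lower without the GFP high library of set 2 at 48 h. Of other protein-coding genes with at most 1000 exon bases 34.0% were higher, against 41.7% of members of that length. Above 1000 and up to 2000 bases these shares were 20.4% and 47.4%.

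The subunits encoded in mitochondrial DNA were mostly lower in GFP low cells at 24 h and 48 h and mostly higher at 72 h. At 24 h 12 of the 13 were lower in GFP low cells (median -0.42), against 28.5% of all genes tested. At 48 h 13 were lower (median -0.42), against 13.2%, and at 72 h 12 were higher (median 0.53), against 12.9%. The sum of the 13 was 33330 ± 1050 CPM in GFP low and 45340 ± 2170 CPM in GFP high cells at 24 h. It was 28470 ± 554 CPM in GFP low and 37180 ± 935 CPM in GFP high cells at 48 h, and 39480 ± 1020 CPM in GFP low and 27350 ± 736 CPM in GFP high cells at 72 h (SD, n = 3 each). MT-CO1, the catalytic subunit of complex IV, changed by -0.32, -0.36 and 0.50 log2 units at the 3 times, and MT-ATP6 of complex V by -0.65, -0.49 and 0.61. MT-ND6, which lies on the other strand of mitochondrial DNA from the other 12, had -0.23 at 48 h, called, and 0.05 and -0.04 at 24 h and 72 h, not called.

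Other nuclear genes around the chain were also mostly lower at 24 h. Over all genes tested 28.5% were lower and 29.3% higher. Of protein-coding genes outside the members with above 1000 and up to 2000 exon bases, 486 of 778 were lower (median -0.39). The lists below were not compared with genes of their own lengths. Of 52 assembly factors 42 were lower and 3 higher (median -0.41), with SDHAF3, UQCC3 and TMEM70, which help to build complexes II, III and V, at -1.05, -0.91 and -0.81; the 3 higher were ATPAF1, LYRM7 and COA7. Of the 22 tested of 23 carriers and cofactor genes 17 were lower and 1, COQ8A, higher (median -0.38): cytochrome c itself, CYCS, fell by 0.52, and the ADP/ATP carrier SLC25A5 by 1.09. Of 14 genes of the citric acid cycle 10 were lower and 1 higher (median -0.28), with the succinyl-CoA ligase SUCLG1 at -0.90. At 48 h 4 assembly factors were lower and 2 higher, 4 carrier genes lower and 3 higher, and 5 citric acid cycle genes lower and 4 higher. Over all genes 13.2% were lower and 10.6% higher at 48 h.

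Of 19 tested genes for the transcription of respiratory genes, 10 were lower and 4 higher at 24 h (median -0.18). Over all genes 28.5% were lower and 29.3% higher. In this list TFB1M, TFB2M and TFAM fell by 0.67, 0.63 and 0.42 log2 units, and NRF1 by 0.28. YY1, MYC, POLRMT and PPARGC1B were higher, by 0.12, 0.11, 0.27 and 0.32. GABPA and SP1 stood at 0.02 and 0.03 and were not called. At 48 h, 5 of the list were lower and 1 higher, against 13.2% and 10.6% of all genes. At 72 h 7 were lower and 2 higher, against 13.5% and 12.9%.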

How the data were processed

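The authors deposited raw counts, whole numbers for each gene without normalization, from 18 RNA sequencing libraries; per the labels' protocols, ribosomal RNA was removed and libraries were made with KAPA RNA HyperPrep. FastQC, STAR, featureCounts (Subread), R 4.2.1 and hg38 are named, with no role stated, per the submitters' processing notes. The sources used here give no annotation release, strand setting or rule for reads that map to several places. Column names give group and library set but not which sample of the group; D1, D2 and D3 were read as 24, 48 and 72 h. Of 60710 lines, 60707 genes were read and 3 lines of a broken entry left out.

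In R 4.3.3, edgeR 4.0.16 (with limma 3.58.1) was run on the counts: filterByExpr kept 16474 genes, scaling was by TMM, and the quasi-likelihood test used 6 group means with 12 residual degrees of freedom (2-sided, Benjamini-Hochberg, threshold 0.05). The common biological coefficient of variation was 3.49%. Gene types and principal transcripts come from GENCODE 29, promoters from RefSeq. DESeq2 1.42.0, Python 3.11.15 and matplotlib 3.10.9 were also used. The fit was tested on simulated counts. The library sets pair the libraries: the 45 same-set pairs had correlated deviations (r 0.22 to 0.54), and 18 of 18 libraries correlated best with their own set. Alternatives were the replicate block, trends of length and GC removed (lowess, span 0.3), other size factors, no filter, DESeq2's Wald test, members with little exon overlap and leaving out each library; those on principal length, on GC and on exon overlap were chosen after seeing the data. Members and gene lists were chosen with earlier results of these data known. Named genes are, in each comparison and complex, the called members with the lowest and highest values, those with the opposite sign, the uncalled at 24 h, and fixed catalytic and tissue-restricted subunits; NDUFS3, NDUFS5, NDUFS7, NDUFS8 and NDUFA1, and genes of the other lists, were added after their values were seen. Single-gene results for 1 member and 1 listed gene are not reported here. Pseudogenes matching the members' symbols held 0.096% of the counts of members and these pseudogenes together.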

Additional observations from a re-analysis of the deposited data

Results flagged for a closer look

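The GFP difference of the members changed between times by edgeR's interaction test. Between 24 h and 48 h it was higher at 48 h in 73 members and lower in 2, and between 48 h and 72 h it was higher at 72 h in 11 and lower in 4. Of these, 5 members were called lower in GFP low cells at 24 h and higher at 48 h: COX5B (interaction 0.845 log2 units), COX7A2L (0.836), UQCRFS1 (0.753), NDUFS4 (0.63) and ATP5MC2 (0.483). Another 2 were called lower in GFP low cells at 48 h and higher at 72 h, NDUFB1 (0.384) and ATP5MK (0.28). Of 16474 genes tested, 1.92% switched like the 5 and 0.996% like the 2. With the exon-length trend removed ATP5MC2 lost its call at 24 h, NDUFS4 those at 24 h and 48 h, NDUFB1 that at 48 h and ATP5MK that at 72 h.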

How the results depend on the processing

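The 24 h result kept its direction under every alternative run: between 65 and 77 members were called, most of them lower, and 49 among the members with little exon overlap. Its median was -0.641 without the filter, -0.330 with the exon-length trend removed (with and without the replicate block), -0.345 with GC also removed (-0.344 with the block), -0.197 with the principal length trend removed (-0.198 with the block), and -0.676 to -0.636 leaving out 1 library. At 48 h, 39 members were called with the replicate block, 39 with block and length trend, 41 with block and principal length trend, 26 with length and GC trends (38 with the block), and 11 to 16 leaving out 1 library. The 48 h median, -0.012, ranged from -0.011 to 0.010 leaving out 1 library: it was 0.010 without the GFP low library of set 1, 0.007 without the GFP high library of set 2 and 0.007 over members with little exon overlap. At 72 h, the counts in that order were 36, 34, 41, 32 (35 with the block), and 17 to 23. For the change of the difference from 48 h to 72 h they were 32, 35, 34, 29 (39 with the block), 9 with the principal length trend alone, and 8 to 15. For 48 h against 24 h in GFP high cells 25 and 22 members were called with the exon and principal length trends removed (33 to 42 leaving out 1 library). For 72 h against 48 h in GFP high cells these were 12 and 16 (20 to 27). Shares of all genes called under these alternatives are not given here.

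At 24 h the sign of 11 called members of 84 turned with the exon-length trend removed, of 9 with the principal length trend and of 7 with length and GC trends. Among the 52 named members these, and uncalled ones that turned into a call, are given without and with the replicate block. With the exon-length trend these were ATP5MC2 (0.002, 0.002), COX4I2 (0.169, 0.159), NDUFA8 (0.228, 0.229), NDUFB7 (0.027, 0.022), NDUFS4 (0.071, 0.067) and SDHA (-0.015, -0.018). With the principal length trend they were ATP5F1D (0.028, 0.030), ATP5MC2 (0.055, 0.055), NDUFA8 (0.043, 0.045), NDUFB4 (0.074, 0.078), NDUFS4 (0.110, 0.106) and, with the block, NDUFV3 (-0.089). With length and GC trends they were COX4I2 (0.072, 0.061), NDUFA8 (0.217, 0.217), NDUFS4 (0.136, 0.133) and SDHA (-0.056, -0.058). The cause was not tested. The replicate block ended no call of a named member in the GFP comparisons and added 22. Leaving out 1 library ended 40 of 936 such results.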

Other observations

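NDUFV2, NDUFA13 and NDUFA7, subunits of complex I, were counted at 2.92, 2.95 and 1.09 CPM on average over the groups, against 214.6 CPM for NDUFV1 and 259.9 CPM for NDUFS1. They share 28.4%, 21.0% and 32.5% of their exon bases with other genes, among them YJEFN3 for NDUFA13 and RPS28 for NDUFA7, and 34 of the 90 members share more than 10%. How the authors' counting treated shared bases is not stated, and its part in these levels was not tested.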
